A study of Mus musculus with 6 samples.

Results

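Transcripts of 10 genes of the HSP70 chaperone family were examined in testicular germ cells of control and Mgat1 cKO mice at 23 days post-partum (dpp). The genes are Hspa1l, Hspa2, Hspa4l, Hspa1a, Hspa1b, Hspa8, Hspa4, Hspa5, Hspa9 and Hspa13. They were taken by symbol: every probe set whose annotation holds exactly 1 gene symbol, equal to one of the 10, was a member. This gave 122 probe sets of 233753 with 1 symbol, and 10 genes of 23152. A further 3 probe sets carry a member's symbol together with another (2 for Hspa1a and Hspa1b, 1 for Hspa8 and Snord14e) and were kept apart. Control mice were Mgat1[F/F], and Mgat1 cKO mice were Mgat1[F/F]:Stra8-iCre, so both carried the floxed Mgat1 alleles and only the mutants carried iCre, expressed in spermatogonia from the Stra8 promoter. Germ cells of FVB mice were released by collagenase and then trypsin, each with DNase, and RNA was hybridized to 6 Mouse Gene 2.0 ST arrays, 3 per genotype. For each genotype RNA of 6 mice was pooled and 3 aliquots of the pool were hybridized, so a p-value here measures the spread between aliquots and not between mice, and pool and genotype cannot be told apart. An exact two-sided permutation test of 3 arrays against 3 cannot give a p under 0.1, so tests were made with limma across all genes or all probe sets.

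HSP70 proteins bind exposed hydrophobic stretches of client proteins and release them in a cycle of ATP binding and hydrolysis. J-domain proteins speed the hydrolysis, and nucleotide exchange factors, among them the BAG proteins and the HSP110 relatives of HSP70, let ADP go so that the client is freed. In the testis the family has forms of its own: Hspa2 (HSP70-2) is made in meiotic spermatocytes and is required in male mice for meiosis, Hspa1l (Hsc70t) is made in post-meiotic spermatids, and Hspa4l (APG-1) is an HSP110-like gene rich in testis. Hspa1a and Hspa1b are the heat-inducible pair, and Hspa8 is the constitutive form of most cells. Hspa5 (BiP) serves the endoplasmic reticulum and Hspa9 (mortalin) the mitochondria.

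Hspa1b, Hspa1a and Hspa1l lie next to each other on mouse chromosome 17, with Hspa1a and Hspa1l pointing away from each other. The regions around their start sites are shown because Hspa1l and Hspa1a were called in opposite directions in the Mgat1 cKO arrays, and that of Hspa2 because it is the other main testis form. Each window runs from 250 bases before the start to 50 bases after it and is from RefSeq on GRCm38.p6. Windows were matched for 7 of the 10 genes. Capitals mark the heat shock element GAANNTTC (or TTCNNGAA) and the cAMP element core TGACG (on the other strand CGTCA).
Hspa1l, chr17:34972453-34972752, plus strand: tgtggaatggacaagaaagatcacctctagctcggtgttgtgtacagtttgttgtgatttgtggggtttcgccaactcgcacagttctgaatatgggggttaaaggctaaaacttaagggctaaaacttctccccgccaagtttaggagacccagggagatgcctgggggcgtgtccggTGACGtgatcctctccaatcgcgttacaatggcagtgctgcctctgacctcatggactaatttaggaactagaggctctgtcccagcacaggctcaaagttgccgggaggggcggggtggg
Hspa1a, chr17:34972107-34972406, minus strand: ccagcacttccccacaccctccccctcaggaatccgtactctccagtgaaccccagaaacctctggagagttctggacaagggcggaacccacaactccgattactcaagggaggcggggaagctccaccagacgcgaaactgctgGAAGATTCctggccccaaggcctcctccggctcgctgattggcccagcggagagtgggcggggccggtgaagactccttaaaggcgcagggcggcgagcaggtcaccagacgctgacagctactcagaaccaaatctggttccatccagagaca
Hspa1b, chr17:34959189-34959488, minus strand: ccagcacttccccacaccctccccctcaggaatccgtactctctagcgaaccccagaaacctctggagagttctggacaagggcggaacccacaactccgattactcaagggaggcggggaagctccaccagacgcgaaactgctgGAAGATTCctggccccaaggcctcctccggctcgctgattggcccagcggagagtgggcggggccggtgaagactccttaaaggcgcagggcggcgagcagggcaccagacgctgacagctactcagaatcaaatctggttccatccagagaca
Hspa2, chr12:76404120-76404419, plus strand: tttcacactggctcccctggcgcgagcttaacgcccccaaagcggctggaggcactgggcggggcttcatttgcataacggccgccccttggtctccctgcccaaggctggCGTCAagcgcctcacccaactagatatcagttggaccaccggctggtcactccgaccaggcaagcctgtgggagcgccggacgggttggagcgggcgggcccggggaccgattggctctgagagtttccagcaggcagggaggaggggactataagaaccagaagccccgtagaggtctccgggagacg

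The Hspa1a and Hspa1b windows had 296 of 300 bases in common (98.7%), and each held GAAGATTC at base -104 from the start. The Hspa1l window lies 46 bases from that of Hspa1a and held neither form of the heat shock element. It held TGACG at base -71. The Hspa2 window held CGTCA at base -139 and no heat shock element. All 4 windows held CCAAT on one of the strands, at base -57 in Hspa1l, -67 in Hspa1a and Hspa1b and -29 in Hspa2. Over 32851 RefSeq windows of this length, 15.1% held a heat shock element in either form, 20.8% TGACG and 37.4% CCAAT, with both strands searched. These matches describe letters in the windows and not bound sites.

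The values are log2 RMA values of probe sets, and a gene's value is the mean of its probe sets. Levels were compared between genotypes within a gene or probe set and never between genes. All differences below are Mgat1 cKO minus control on the log2 scale, and a gene or probe set was counted as called at an adjusted p under 0.05 in limma. Arrays correlated at 0.979 to 0.980 across genotypes, at 0.996 among controls and at 0.994 to 0.995 among mutants. The mean of the 12 Mgat1 probe sets was 6.17, 6.44 and 6.33 in the control arrays and 6.35, 6.10 and 6.45 in the Mgat1 cKO arrays, a difference of -0.02 ± 0.11 (SE, adjusted p = 0.94). The gene mean thus did not separate the labelled genotypes, but its probe sets ran from -1.01 to 0.58 and 1 of the 12 was called: 17248953 read 6.71, 6.54 and 6.66 in the control arrays and 5.80, 5.33 and 5.75 in the Mgat1 cKO arrays, with no overlap (difference -1.01 ± 0.16, SE, limma adjusted p = 0.037). Which of these 12 fall in the floxed region was not analysed here. Of the spermatid marker genes, 9 of 10 for round and 8 of 8 for elongating spermatids were called higher in the Mgat1 cKO arrays. Of the spermatocyte markers 1 of 10 was called higher, and of the spermatogonia markers 0 of 8 was called in either direction. Genes of other cell types were called lower for epididymal epithelium (5 of 8), peritubular and stromal cells (3 of 6), macrophages (3 of 6), Leydig cells (2 of 5) and Sertoli cells (1 of 10), and for endothelial cells in 0 of 5. Beside these marker counts, 6.07% of all genes were called higher and 2.35% lower.

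Hspa1l was called higher and Hspa1a lower in Mgat1 cKO germ cells, and the other 8 members were not called in either direction. Over all genes 6.07% were called higher and 2.35% lower, so 1 of 10 in each direction is within 1 gene of those shares. The median difference of the members was -0.07, beside -0.05 over all genes. Every Mgat1 cKO array was above every control array in 2 members, Hspa1l and Hspa2, and below in 3, Hspa1a, Hspa1b and Hspa8. Over all genes the arrays did not overlap in this way in 11.2% (above) and 20.1% (below). Of the 122 member probe sets, 4 were called higher, all of Hspa1l, and 1 lower, of Hspa1a, where 1.87% and 0.18% of all probe sets were called. All 4 Hspa1l probe sets were over 2-fold higher, beside 1.63% of all probe sets called at that size, and the 1 of Hspa1a was over 2-fold lower, beside 0.106%. In 11 member probe sets every Mgat1 cKO array was above every control array and in 22 every one was below, where 8.66% and 10.8% of all probe sets were so.

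**Figure D1:**
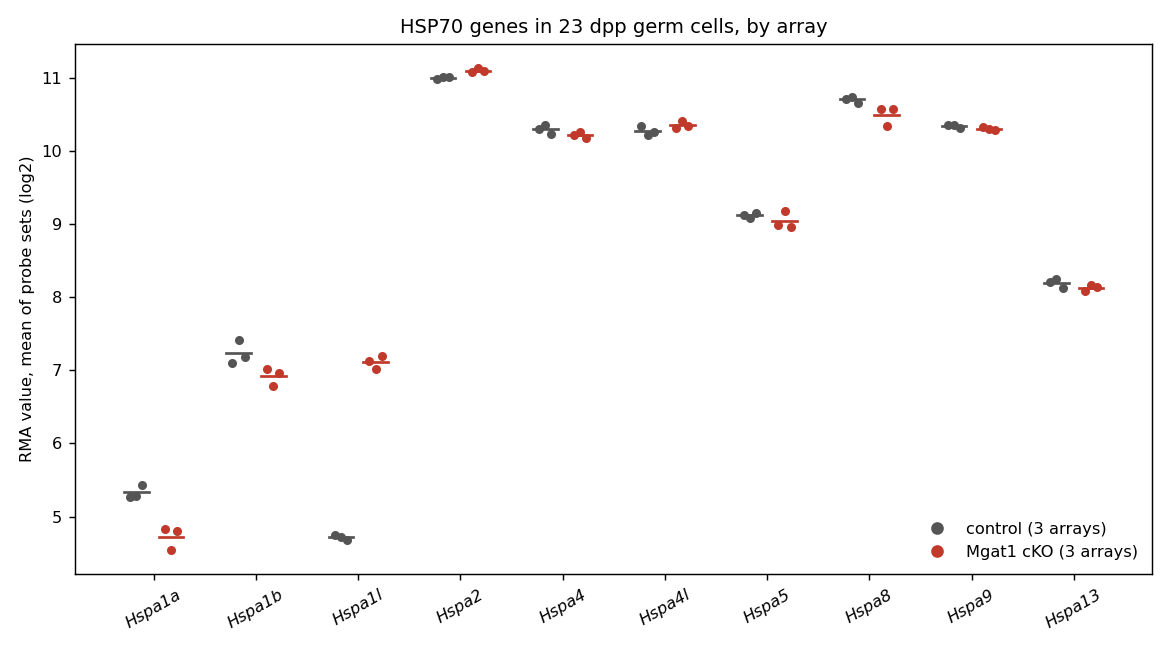
Log2 RMA value of each HSP70 gene (mean of its probe sets) in the 3 control arrays and the 3 Mgat1 cKO arrays, with 1 point per array and a line at the mean of each genotype. The genotypes lie far apart for Hspa1l, at 4.68 to 4.74 against 7.02 to 7.20, and within 1 log2 unit of each other for the other 9 genes.

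Hspa1l, the HSP70 form of spermatids, had the largest difference of the family. Its mean over 5 probe sets was 4.74, 4.73 and 4.68 in the control arrays and 7.13, 7.02 and 7.20 in the Mgat1 cKO arrays. All 3 Mgat1 cKO arrays were more than 2 log2 units above all 3 control arrays. The difference was 2.40 ± 0.07 (SE, n = 3 arrays per genotype; 95% interval 2.25 to 2.56; limma adjusted p = 3.0e-07), or 5.28-fold. Over all genes 2.53% were called and over 2-fold higher, with Hspa1l the one member among them, and 0.0346% were called and over 2-fold lower, with no member. The study named this gene from the same arrays, so the value is no independent evidence for it. Spermatid markers moved with it: the mean level of the elongating spermatid list was 6.25 to 6.33 in the control arrays and 8.75 to 8.81 in the Mgat1 cKO arrays (median difference 2.26), and that of the round spermatid list 6.73 to 6.80 and 8.41 to 8.52 (median difference 1.82). In these bulk samples more cells of a type and more RNA per cell cannot be told apart, and neither can fewer cells and less RNA per cell. The part of spermatid number in the Hspa1l value was not tested.

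The 5 Hspa1l probe sets did not move by the same amount. Probe set 17336826 read 5.26, 5.05 and 5.27 in the control arrays and 9.70, 9.68 and 9.68 in the Mgat1 cKO arrays, a difference of 4.49 ± 0.11 (SE, limma adjusted p = 3.5e-04), or 22.5-fold. Probe set 17336827 read 6.87, 6.16 and 6.13 against 9.97, 9.91 and 9.95, a difference of 3.55 ± 0.22 (limma adjusted p = 8.9e-04), or 11.7-fold. In both, the lowest Mgat1 cKO array was over 3 log2 units above the highest control array. Probe set 17336825 read 4.60, 4.63 and 4.28 against 7.06, 6.68 and 7.02, a difference of 2.41 ± 0.16 (limma adjusted p = 0.0012). Probe set 17344138 read 4.12, 4.90 and 4.87 against 6.22, 6.13 and 6.65, a difference of 1.70 ± 0.26 (limma adjusted p = 0.033). The genotypes did not overlap in either. The fifth, 17336828, was near 3 in both genotypes, at 2.86, 2.90 and 2.86 against 2.71, 2.73 and 2.69, and its difference of -0.16 was not called (limma adjusted p = 0.57), although the genotypes did not overlap.

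A test of whether the probe sets of 1 gene share 1 difference (limma diffSplice) gave F = 88.1 for Hspa1l (adjusted p = 2.3e-11 over all genes), where 7.44% of 20833 genes with several probe sets were called. Set against the rest of the gene, the difference of 17336828 deviated by -3.20 and that of 17336826 by 2.62 on the log2 scale. The gene mean of 2.40 is therefore an average over unlike probe sets. Among them, 17336828 read 2.69 to 2.90 on all 6 arrays, a low range where RMA compresses differences. Whether Hspa1l transcripts differ in structure between genotypes was not tested. In 1 refit, probe sets dimmer than the median of all probe sets, by their mean over all 6 arrays, were left out. There 17336826 and 17336827 remained and the difference was 4.02. Their control means of 5.19 and 6.39 lay below the array medians of 6.85 to 6.87. Their Mgat1 cKO means were 9.69 and 9.94. Both thus stayed in through the Mgat1 cKO arrays, so the value of 4.02 is no separate support.

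**Figure D2:**
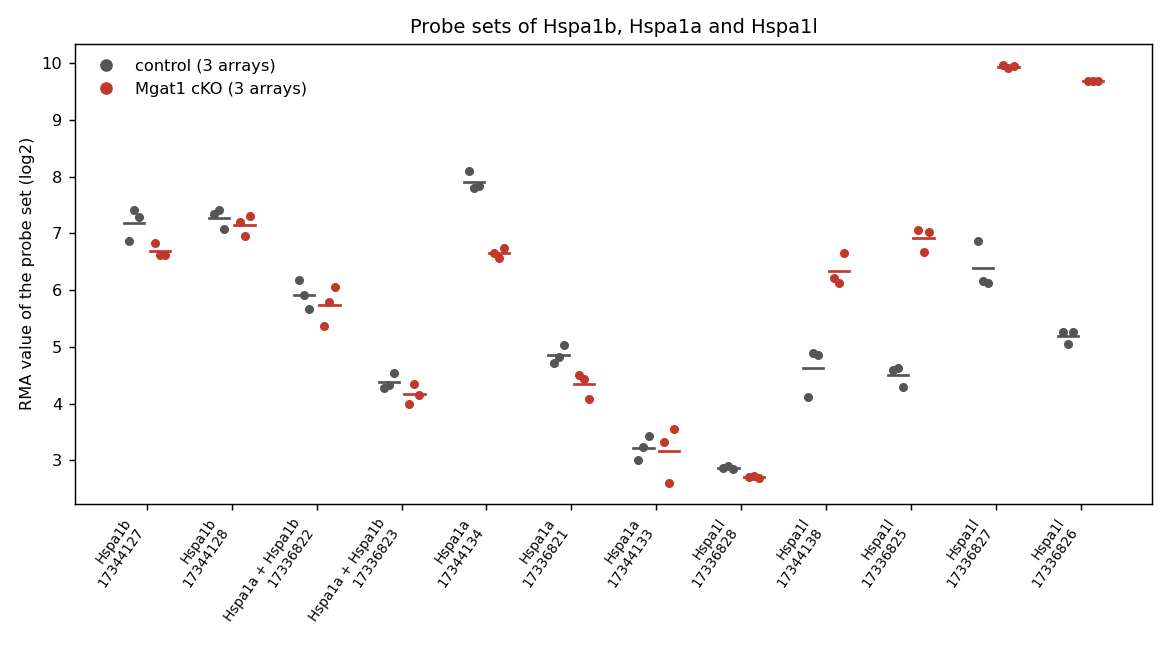
Log2 RMA value of each probe set of Hspa1b, Hspa1a and Hspa1l and of the 2 probe sets shared by Hspa1a and Hspa1b, with 1 point per array and a line at the mean of each genotype. For Hspa1l, 4 of 5 probe sets are higher in the Mgat1 cKO arrays, while for Hspa1a only 17344134 shows a gap as wide as 1.25 in the other direction.

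Hspa2, the spermatocyte form, differed little between the genotypes. It read 10.99, 11.02 and 11.01 in the control arrays and 11.08, 11.14 and 11.09 in the Mgat1 cKO arrays. The Mgat1 cKO arrays were all above the control arrays, yet the difference of 0.10 ± 0.06 (SE; 95% interval -0.04 to 0.23) was not called (limma adjusted p = 0.35). Its 4 probe sets differed by 0.00 to 0.25, and in 2 of them the genotypes did not overlap. The highest, 17276566, read 8.89, 8.93 and 8.96 against 9.15, 9.26 and 9.12 (limma adjusted p = 0.41). The interval leaves room for a change of up to 1.17-fold upward. The difference between Hspa1l and Hspa2 in response was not tested.

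Hspa4l, the HSP110-like form rich in testis, read 10.34, 10.23 and 10.27 in the control arrays and 10.31, 10.41 and 10.34 in the Mgat1 cKO arrays. The genotypes overlapped, and the difference was 0.08 (95% interval -0.07 to 0.23, limma adjusted p = 0.50). Over its 25 probe sets the differences ran from -0.54 to 0.80, and none was called. The probe sets differed among themselves by diffSplice (F = 2.22, adjusted p = 0.044). This call was lost in several refits: it gave an adjusted p of 0.51 without control replicate 2, 0.24 without control replicate 3 and 0.60 without Mgat1 cKO replicate 1. The highest, 17397245, read 7.38, 6.15 and 6.75 against 7.53, 7.86 and 7.31, and the lowest, 17397260, lay between 8.64 and 8.80 in the control arrays and between 7.74 and 8.81 in the Mgat1 cKO arrays. In both the genotypes overlapped.

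**Figure D3:**
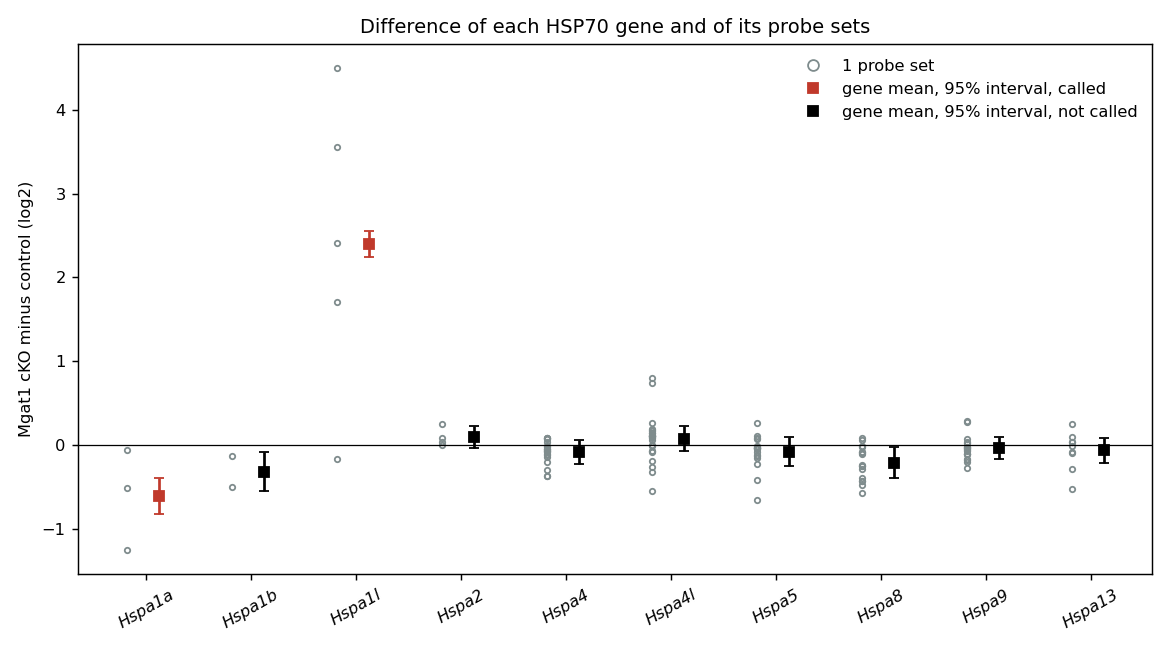
Difference between genotypes (Mgat1 cKO minus control, log2) of each HSP70 gene with its 95% interval, beside the difference of each of its probe sets (open circles). Only Hspa1l, at 2.40, and Hspa1a, at -0.61, were called; the probe sets of the remaining genes lie between -0.66 and 0.80.

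Hspa1a, one of the heat-inducible pair, was the member called lower. It read 5.27, 5.28 and 5.43 in the control arrays and 4.83, 4.54 and 4.80 in the Mgat1 cKO arrays. All Mgat1 cKO arrays were below all control arrays. The difference was -0.61 ± 0.09 (SE; 95% interval -0.82 to -0.39; limma adjusted p = 0.0047), which is 1.52-fold lower. Most of it came from 1 of 3 probe sets. Probe set 17344134 read 8.10, 7.80 and 7.83 against 6.66, 6.57 and 6.75, a difference of -1.25 ± 0.13 (limma adjusted p = 0.0064), or 2.38-fold lower. Probe set 17336821 read 4.72, 4.83 and 5.03 against 4.51, 4.44 and 4.09 (difference -0.51, limma adjusted p = 0.27). The genotypes were apart in both of these, but not in 17344133, which read 3.00, 3.23 and 3.44 against 3.32, 2.60 and 3.56 (difference -0.06, limma adjusted p = 0.95). The 3 probe sets differed among themselves by diffSplice (F = 8.34, adjusted p = 0.048), a call that was lost in 5 of the 6 refits without 1 array (adjusted p 0.011 to 0.31). Without 17344134 the gene's difference was -0.29 and not called (limma adjusted p = 0.22), a setting chosen after seeing the data. The call was also lost with one-way analysis of variance (adjusted p = 0.061) and with the median of probe sets (-0.51, adjusted p = 0.11). It held with an intensity trend (adjusted p = 0.0023) and with the replicate number as a block (adjusted p = 0.0086). Where probe sets dimmer than the median of all probe sets were left out, only 17344134 remained and the difference was -1.25 (limma adjusted p = 2.5e-04). Its mean was 7.91 in the control arrays and 6.66 in the Mgat1 cKO arrays, where the array medians were 6.85 to 6.87. It thus stayed in through its control values. That refit is the called probe set alone and no separate support for the call.

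Hspa1b, its near-identical copy, read 7.10, 7.41 and 7.18 in the control arrays and 7.02, 6.78 and 6.96 in the Mgat1 cKO arrays. The Mgat1 cKO arrays were again all lower, but the difference of -0.31 ± 0.10 (SE; 95% interval -0.54 to -0.08) was not called (limma adjusted p = 0.11). Its 2 probe sets differed by -0.50 (17344127) and -0.12 (17344128). The 2 probe sets shared by both genes differed by -0.18 and -0.22 (limma adjusted p = 0.80 and 0.61), and their genotypes overlapped. RNA of these near-identical transcripts may bind probes of either gene, so how the difference is divided between Hspa1a and Hspa1b is uncertain.

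The neighbouring genes did not share the difference of Hspa1l. Of the 3 measured genes on its far side, Lsm2, a gene of an RNA-binding Sm-like protein, differed by 0.10 (limma adjusted p = 0.61) and Vars, a valyl-tRNA synthetase gene, by 0.13 (limma adjusted p = 0.23). D17H6S56E-5, between them, was called lower at -0.52 ± 0.13 (SE, limma adjusted p = 0.044), a call lost in 4 of 6 refits without 1 array (adjusted p 0.041 to 0.14). The call was also lost with one-way analysis of variance (adjusted p = 0.17) and the replicate number as a block (adjusted p = 0.054). The same held for the median of probe sets (adjusted p = 0.074) and with dim probe sets left out (-0.32, adjusted p = 0.14). It was kept with an intensity trend (adjusted p = 0.0066), median centring and repeated quantile normalization. Snord52, a small nucleolar RNA gene beyond Hspa1b, differed by 0.04 (limma adjusted p = 0.84), a direction that turned in 2 of 6 refits without 1 array. Of the 7 genes Hspa1l alone was called higher.

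**Figure D4:**
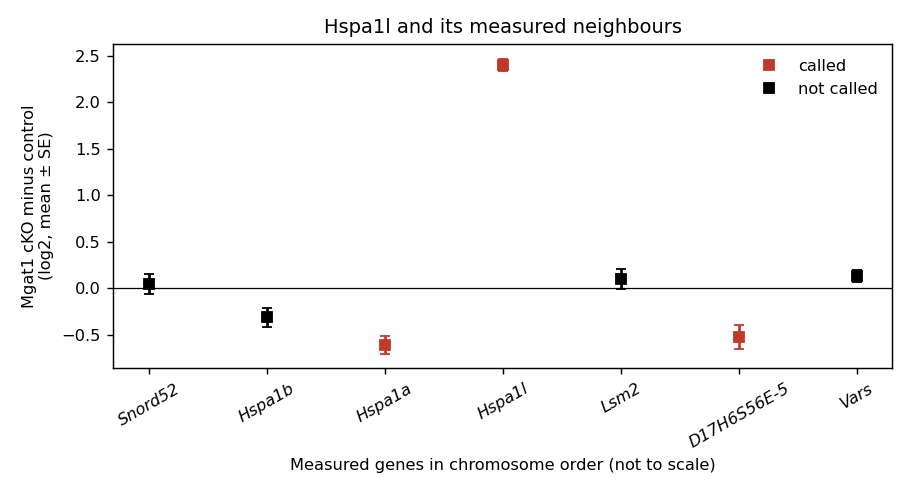
Difference between genotypes (Mgat1 cKO minus control, log2, mean with SE) of Hspa1l and the 3 measured genes on each side, in chromosome order and not to scale. Hspa1l stands at 2.40, its direct neighbours Hspa1a and Lsm2 at -0.61 and 0.10.

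Hspa8, the constitutive cytosolic HSP70, read 10.72, 10.74 and 10.66 in the control arrays and 10.57, 10.35 and 10.58 in the Mgat1 cKO arrays. Every Mgat1 cKO array was below every control array, and Mgat1 cKO replicate 2 was the lowest. The difference was -0.21 ± 0.08 (SE; 95% interval -0.39 to -0.02) and was not called (limma adjusted p = 0.16), while with an intensity trend in limma it was (adjusted p = 0.024). It was -0.46 with the median of probe sets (adjusted p = 0.24) and -0.13 without Mgat1 cKO replicate 2 (adjusted p = 0.31). Of its 17 probe sets 15 had a lower mean in the Mgat1 cKO arrays, from -0.56 to 0.09 over all, and in 8 the genotypes did not overlap. None of these was called. Probe sets of 1 gene share the same RNA and are no replicates. The lowest, 17516370, read 10.31, 10.54 and 10.09 against 9.99, 9.53 and 9.73 (limma adjusted p = 0.28). The probe set shared with Snord14e differed by -0.08 (limma adjusted p = 0.83).

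Hspa4 (APG-2), an HSP110-like nucleotide exchange factor, read 10.31, 10.36 and 10.23 in the control arrays and 10.23, 10.26 and 10.18 in the Mgat1 cKO arrays. The genotypes overlapped, and the difference was -0.08 (95% interval -0.23 to 0.07, limma adjusted p = 0.49). Of its 20 probe sets 15 had a lower mean and none was called, between -0.37 (17262630) and 0.09 (17262637).

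The members of the organelles had intervals that span 0. Hspa5, the chaperone of the endoplasmic reticulum, read 9.13, 9.08 and 9.15 in the control arrays and 8.99, 9.18 and 8.96 in the Mgat1 cKO arrays. Mgat1 cKO replicate 2 was the highest of all 6 and the other 2 were the lowest. The difference was -0.08 (95% interval -0.25 to 0.09, limma adjusted p = 0.56), and its sign turned with the median of probe sets in place of the mean. Differences of its 18 probe sets lay between -0.66 (17370121) and 0.27 (17370105). Hspa9, the mitochondrial form, read 10.35, 10.35 and 10.32 against 10.33, 10.30 and 10.29, with a difference of -0.04 (95% interval -0.17 to 0.09, limma adjusted p = 0.73) and 19 probe sets from -0.27 (17353571) to 0.29 (17353559). Hspa13, a microsomal member, read 8.21, 8.25 and 8.13 against 8.09, 8.17 and 8.15, with a difference of -0.06 (95% interval -0.21 to 0.09, limma adjusted p = 0.59) and 9 probe sets from -0.52 (17331536) to 0.26 (17331542). The genotypes overlapped in all 3 genes.

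Genes that work with HSP70 were followed in 7 lists with 68 different measured genes. Of these 3 were called higher, none lower by limma, and their median difference was -0.07, beside -0.05 over all genes. The lists were chosen with earlier results of these data known. The shares called in each direction over all genes were those given above, 6.07% and 2.35%, so 3 of 68 and 0 of 68 were not above them. Without the adjustment, p was under 0.05 with a lower mean for 11 of the 68 and with a higher mean for 8, beside 14.5% and 9.55% of all genes.

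Among 12 J-domain partners 1 was called, Dnaja4, a cytosolic J-domain co-chaperone. It read 6.28, 6.37 and 6.53 in the control arrays and 7.02, 7.25 and 7.14 in the Mgat1 cKO arrays. The genotypes were well apart, by a difference of 0.74 ± 0.09 (SE, limma adjusted p = 0.0011), or 1.67-fold. With the median of probe sets the call was lost (adjusted p = 0.070). The median of the list was -0.03, and Dnajb1, the heat-inducible partner, differed by 0.19 (limma adjusted p = 0.12).

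Among 15 nucleotide exchange factors and helpers 1 was called, Bag5, which holds several BAG domains. It read 8.72, 8.71 and 8.76 against 9.08, 8.97 and 9.09. The genotypes did not overlap, and the difference was 0.32 ± 0.06 (SE, limma adjusted p = 0.019). The call was lost in 5 of 6 refits without 1 array (adjusted p 0.021 to 0.075). The median of the list was -0.02, and Sil1, the exchange factor of Hspa5, differed by 0.20 (limma adjusted p = 0.12).

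Of 4 heat shock factors, the transcription factors of heat shock genes, Hsf2 was called. It is a factor with a role in mouse spermatogenesis. It read 8.09, 8.18 and 7.96 in the control arrays and 8.46, 8.45 and 8.44 in the Mgat1 cKO arrays. The control arrays were all lower, by a difference of 0.37 ± 0.07 (SE, limma adjusted p = 0.016), a call lost in 3 of 6 refits without 1 array (adjusted p 0.019 to 0.056). Hsf1, the main factor of the heat response, differed by 0.01 (limma adjusted p = 0.93), and the list's median was 0.01.

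The remaining lists had no called gene. Of 5 other HSP70 and HSP110 genes the median was -0.18 and the largest difference that of Hspa12a, -0.26 (limma adjusted p = 0.15). Of 13 HSP90, chaperonin and small heat shock protein genes the median was -0.12 and the largest difference that of Hspb8, a small heat shock protein gene, -0.26 (limma adjusted p = 0.094). Of 14 genes of the stress response of the endoplasmic reticulum, which rise with Hspa5 when proteins misfold there, the median was -0.08, and Atf4, a transcription factor of that response, differed by -0.29 (limma adjusted p = 0.13). Of 7 measured spermatocyte partners of HSPA2 the median was -0.13, and Sycp3, of the synaptonemal complex, differed by -0.29 (limma adjusted p = 0.11). Hspa12a, Hspb8, Atf4 and Sycp3 each had all Mgat1 cKO arrays below all control arrays without being called. Over the 7 lists this held for 23 of the 68 genes, beside 20.1% of all genes. In 9 of the 68 all Mgat1 cKO arrays were above, beside 11.2% of all genes. Atf4 was called lower with dim probe sets left out (adjusted p = 0.019) and Sycp3 with an intensity trend (adjusted p = 0.018), while with the median of probe sets Sycp3 differed by -0.05 (adjusted p = 0.89). Without control replicate 1 the difference of Atf4 was -0.18.

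**Figure D5:**
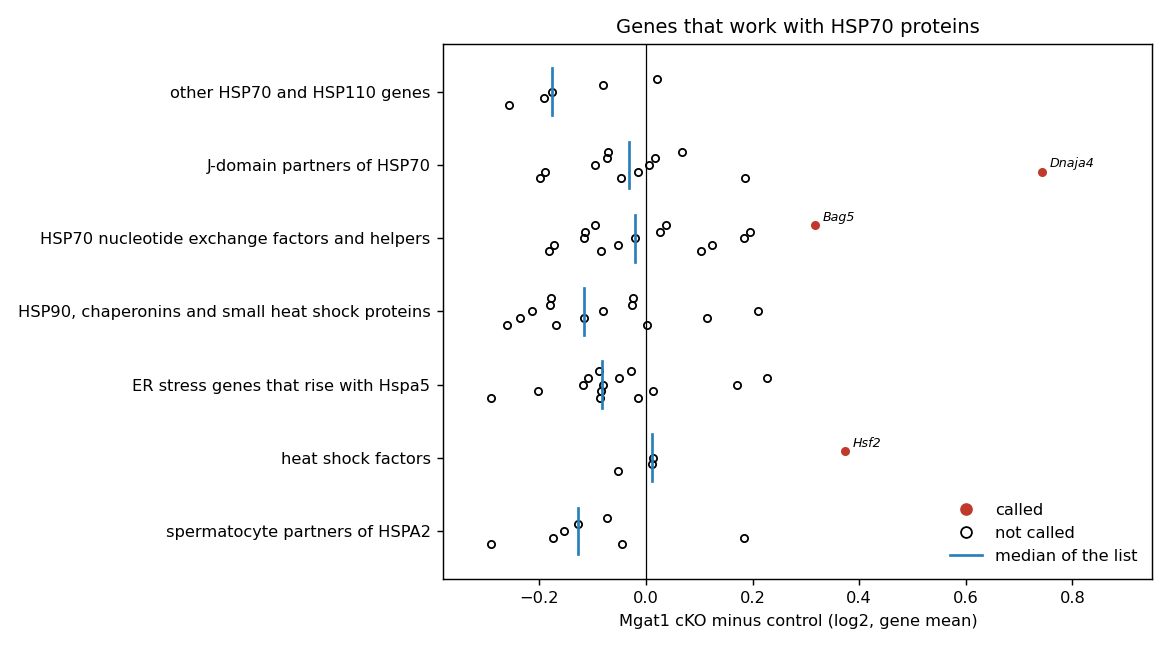
Difference between genotypes (Mgat1 cKO minus control, log2) of each gene of the 7 lists, with a blue line at the list's median and filled points for called genes. Dnaja4, Bag5 and Hsf2 are the called genes, at 0.74, 0.32 and 0.37, and the list medians lie between -0.18 and 0.01.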

How the data were processed

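Germ cell RNA of 23 dpp control and Mgat1 cKO mice (RIN > 9 per the methods) was measured on 6 arrays. The deposited log2 values were made by the authors with RMA in Affymetrix Expression Console (versions not given in the sources used here) and were used as deposited. The table holds 269751 exon level probe sets, of which 233753 carry 1 gene symbol, 5139 several and 30859 none. Gene values are means of probe sets with 1 symbol (23152 genes, median 8 probe sets), 20875 of them under current symbols. RMA brings all arrays to one distribution, so a change shared by most genes cannot be seen. Low values lie near background, where RMA compresses differences. The number of arrays limits the precision.

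In R 4.3.3, limma 3.58.1 was fitted to genes and to probe sets (lmFit, eBayes with no trend, diffSplice). P-values were adjusted by Benjamini-Hochberg over all genes or all probe sets, with a threshold of 0.05. All adjusted p-values without another named test are from limma. The scripts were tested on simulated data. The methods named analysis of variance with a 2-fold threshold. Analysis of variance was run as an alternative without a fold threshold, since 3 arrays against 3 leave few degrees of freedom. The 2-fold threshold was applied separately, to the limma calls. Other alternatives were the replicate number as a block, an intensity trend, the median of probe sets, dim probe sets left out, median centring, repeated quantile normalization, a 1.5-fold threshold and each array left out.

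The members and all gene lists were chosen with earlier results of these data known. Named were all 10 members with their called, highest and lowest probe sets, the called members and the member with the largest difference of each pathway list, and the 3 nearest measured genes on each side of Hspa1l. Dnajb1, Sil1 and Hsf1 beside these, and the probe sets named for their contrast with the rest of a gene, were chosen after their values were seen. Of 71 list entries 1 was not measured under a single symbol. Promoter windows are from RefSeq on GRCm38.p6, which served otherwise for names and gene order. Arrays of 22 dpp germ cells were not analysed here. Plots were made in matplotlib 3.10.9 under Python 3.11.15.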

Additional observations from a re-analysis of the deposited data

How the results depend on the processing

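The higher call of Hspa1l and its direction held under every alternative run. Its difference was 2.36 to 2.45 when 1 array was left out and 2.13 with the median of probe sets. It was 4.02 when dim probe sets were left out. The Hspa1l probe sets that remained there were kept through their high Mgat1 cKO values, so that setting is no separate support. Leaving out 1 probe set, which was not planned, gave 1.88 (without 17336826) to 3.04 (without 17336828). The lower call of Hspa1a did not hold with one-way analysis of variance (-0.61, adjusted p = 0.061), with the median of probe sets (-0.51, adjusted p = 0.11) or without probe set 17344134 (-0.29, chosen after seeing the data). It held without each array (-0.66 to -0.52), with an intensity trend and with the replicate block. With dim probe sets left out, only 17344134 remained for Hspa1a (-1.25), kept through its control values. That setting is no separate check of the call. The number of members called lower was 1 in the main setting, 0 over 2-fold, 0 with analysis of variance, 0 with the median of probe sets and 3 with an intensity trend, which added Hspa1b (adjusted p = 0.042) and Hspa8 (adjusted p = 0.024). Member probe sets called lower numbered 3 with analysis of variance, 3 with an intensity trend and 0 with the replicate block, against 1, and those called higher 2 without dim probe sets, against 4. The number of members whose probe sets differed among themselves was 3, and 1 with the replicate block or 1 to 3 without 1 array. Over all genes 1405 were called higher and 543 lower, with 1385 lower under an intensity trend, 208 with the replicate block, 135 with the median of probe sets, 823 without dim probe sets and 181 to 324 lower without 1 array. The replicate numbers did not pair the arrays: deviations from the group means correlated at -0.02, -0.06 and -0.02 between same-numbered arrays, so the block is only a check. Hspa5 reversed to 0.016 with the median of probe sets, and Snord52 ran from -0.032 to 0.14 without 1 array (-0.032 without control replicate 2 or without Mgat1 cKO replicate 3). Hsf2 was also lost with analysis of variance (adjusted p = 0.059) and the median of probe sets (adjusted p = 0.17), and Bag5 with the replicate block (adjusted p = 0.056). The cause of these changes was not tested.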
